A study of Mus musculus with 16 samples.

Results

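The genes described here are 10 that mark Müller glia, the radial glia that span the retina: Glul, Rlbp1, Slc1a3, Aqp4, Dkk3, Kcnj10, Car2, Crym, Sox9 and Apoe. They were found by gene name on 2-colour Agilent arrays of mouse retina. The set was chosen with earlier results of these data known. Shares over all genes, given below, are therefore a scale for its counts and not a test of the set. All probes with a current or older symbol of a member were taken, which gave 22 probes out of 39788 kept (43426 on the array), and 10 genes out of 23307 kept. The study compared retinas of C57Bl6 mice 24 h after an injection into the vitreous. Pups of 8 days received 4 µg of hFc (n = 4), the control Fc protein alone, 4 µg of Dll4-Fc (n = 4), the Notch ligand Dll4 joined to Fc, or 1 µg of VEGF-A (n = 5), the growth factor of vessels. A further group received VEGF Trap (n = 3), a decoy receptor that binds VEGF, for which the labels used here give neither dose nor age. Every array set 1 retinal sample in Cy3 against a pool of equal amounts of RNA from the whole experiment in Cy5. Levels below are therefore log2 of sample over pool, and are compared for 1 probe at a time, never between probes.

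Müller glia are the main supporting glia of the retina. They take up glutamate released at synapses, turn it into glutamine, carry potassium and water away from active neurons, regenerate retinoid for cones and enclose blood vessels. They arise late from retinal progenitors, and Notch signalling favours their formation and maintenance. Whether the injected Dll4-Fc raised or lowered Notch signalling was not tested, and values of Notch targets are given below. In whole retina, fewer Müller glia and less RNA of a gene per Müller cell cannot be told apart.

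All 22 probes were well above background on all 16 arrays, and 84.9 to 91.0% of all spots on an array were. Slide 1 held the hFc arrays and no others, and slide 2 the Dll4-Fc arrays, so for these groups slide cannot be told apart from treatment. VEGF-A (2 and 3 arrays) and VEGF Trap (2 and 1) shared slides 3 and 4. The scanner software flagged 2350 to 2599 spots per hFc array as outliers and 12 to 213 per array elsewhere. Rows 67 to 230 of 532, with 31.3% of the spots, held 96.8% of those on hFc arrays. Such spots were left out, which removed 6 member values, all on hFc arrays, and left Kcnj10 with hFc 3 as its only hFc value. The array Dll4-Fc 4 stood apart from its group in the members: its median distance from the hFc mean was −0.35, against −0.90 to −1.07 on Dll4-Fc 1 to 3. Lens genes, which mark carried-over lens tissue, ranged over the 6-gene mean from −3.53 to 1.77 between arrays. The lens mean was −3.28 on Dll4-Fc 4 and −0.81 to 0.33 on the other Dll4-Fc arrays, and its part in the member values was not tested. The lens-rich array hFc 4 (1.72) had a member mean of −0.03, and hFc 1 to 3 (−3.04 to −2.93) had 0.00 to 0.08. Of these means only that of hFc 3 includes Kcnj10, and a single lens-rich hFc array cannot decide the question. Titles carry a code that the labels do not explain, and its opening part is the same for hFc 1 and hFc 2, and for VEGF-A 4 and VEGF Trap 3. Whether samples are from separate animals is not given in the labels, so p-values measure the spread between these samples, which may be technical.

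Dll4-Fc vs hFc asked what the injected Dll4 protein changed. Of the 10 Müller glia genes 8 fell and 0 rose, by limma's moderated t test with Benjamini-Hochberg adjustment over all probes at 0.05, each gene read by its brightest probe. The falls ran from 3.04-fold for Kcnj10, with 1 hFc array measured, to 1.37-fold for Crym, with Glul, Rlbp1, Slc1a3, Dkk3, Car2 and Apoe between. With the outlier spots on hFc arrays kept, Kcnj10 gave −1.20 on the log2 scale, near −1.18 for Glul. Across all 22756 genes tested 1.44% fell, 2.94% rose and 4.37% changed in either direction. The member median was −0.80, against −0.016 over all genes. On 8 members the 2 groups of arrays did not overlap, as on 11.8% of all genes, and on each of the 4 Dll4-Fc arrays all 10 members lay below their hFc mean. Aqp4 gave −0.80 (standard error 0.26, adjusted p = 0.133) and Sox9 −0.21 (0.14, adjusted p = 0.616), neither past the threshold. Without Dll4-Fc 4, the Aqp4 difference was −1.01 and past the threshold (adjusted p = 0.0339). Without Dll4-Fc 2 only 5 members passed: Rlbp1, Slc1a3, Dkk3, Kcnj10 and Car2. With the array rows of the hFc outliers left out, 4 of the 7 genes that still had a probe passed: Rlbp1, Slc1a3, Car2 and Crym. Dkk3, Kcnj10 and Apoe had no probe outside those rows.

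VEGF-A vs hFc gave a split pattern in the same 10 genes. Slc1a3 and Crym rose, by 0.81 (standard error 0.16) and 0.99 (0.11), while Aqp4, Glul and Apoe fell, by 1.79 (0.25), 1.53 (0.25) and 0.46 (0.12) on the log2 scale. Rlbp1, Dkk3, Kcnj10, Car2 and Sox9 did not pass, with differences between −0.19 and 0.29. Of all genes tested 5.67% rose and 3.78% fell, 9.45% together, so 5 of 10 lay above that share. The member median of 0.05 was close to that of all genes (−0.045). Arrays of the 2 groups did not overlap for the 5 called genes, and for 16% of all genes.

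VEGF Trap vs hFc gave 1 called member, Crym. It was 1.96-fold lower than in hFc retinas, a log2 difference of −0.97 (standard error 0.12, adjusted p = 0.000882). Across all genes 1.89% fell, 1.02% rose and 2.92% changed. Arrays did not overlap for 3 members, Car2, Crym and Sox9, and for 25.5% of all genes. The other 9 members had differences from −0.29 for Car2 to 0.49 for Sox9, whose adjusted p was 0.0968. With the single VEGF Trap array of slide 4 in place of all 3, Crym gave −0.92 and did not pass (adjusted p = 0.0630). Intervals of the others were as wide as −0.76 to 0.49, for Kcnj10, so a p above the threshold does not show equal levels.

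**Figure D1:**
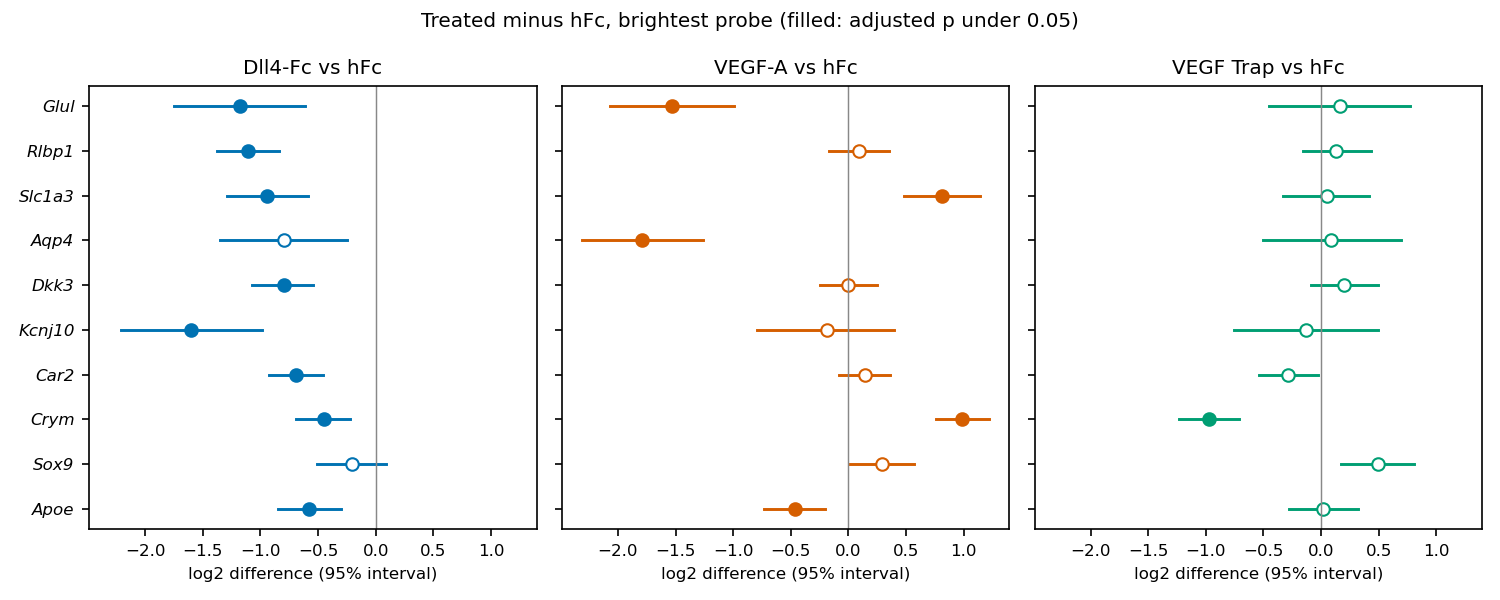
Log2 difference (treated minus hFc) of the brightest probe of each of the 10 genes, with its 95% interval from the limma fit on the horizontal axis, for Dll4-Fc, VEGF-A and VEGF Trap. Filled points passed an adjusted p of 0.05: 8 for Dll4-Fc, all below 0, 5 for VEGF-A on both sides of 0, and 1 for VEGF Trap. All 3 panels share the same hFc arrays.

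**Figure D2:**
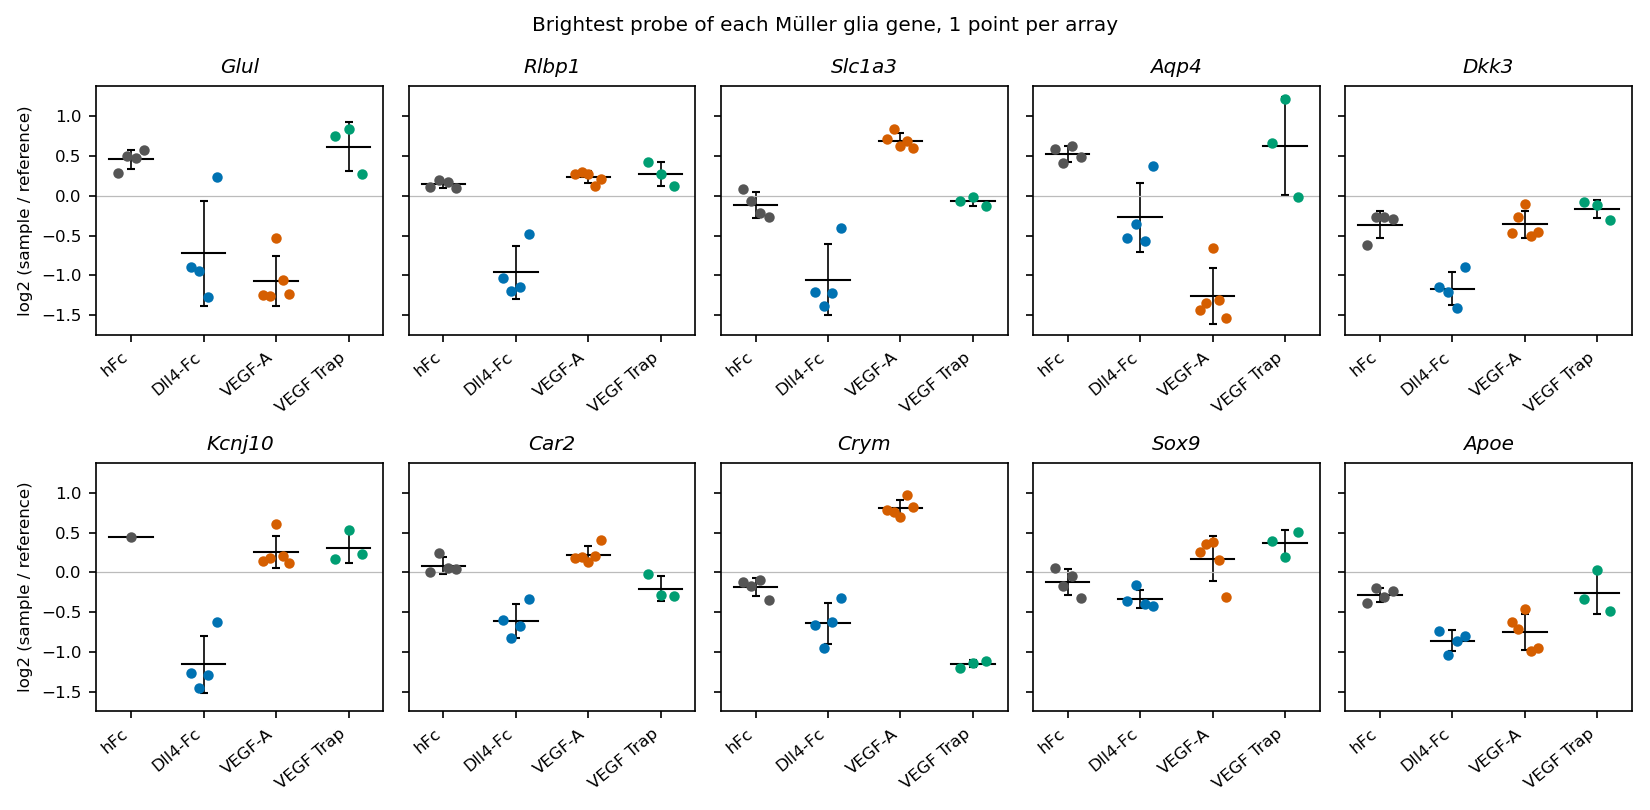
Log2 of sample over reference pool for the brightest probe of each gene on the vertical axis, 1 point per array in 4 groups, with the group mean (line) and standard deviation (bar). Slc1a3 and Crym are highest after VEGF-A, Glul and Aqp4 lowest, and 1 Dll4-Fc array, Dll4-Fc 4, lies above the other Dll4-Fc arrays in most panels; Kcnj10 has a single hFc point.

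Promoters are printed for the 4 members that fell after Dll4-Fc and had a single start in the RefSeq promoter table of build GRCm38.p6, to show the sequence next to genes that moved together. The table matched 5 of the 10 members, the fifth being Apoe with 3 starts. Each run is the 250 bases before the start site, 5′ to 3′ on the gene's strand, and capitals mark CCAAT on either strand, the letters bound by NF-Y.
Glul, chr1:153899679-153899928, + strand: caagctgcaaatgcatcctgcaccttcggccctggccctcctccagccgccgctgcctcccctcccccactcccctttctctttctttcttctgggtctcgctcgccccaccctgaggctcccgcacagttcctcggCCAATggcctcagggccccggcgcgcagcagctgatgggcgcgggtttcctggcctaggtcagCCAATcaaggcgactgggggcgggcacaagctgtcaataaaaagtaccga
Rlbp1, chr7:79387028-79387277, - strand: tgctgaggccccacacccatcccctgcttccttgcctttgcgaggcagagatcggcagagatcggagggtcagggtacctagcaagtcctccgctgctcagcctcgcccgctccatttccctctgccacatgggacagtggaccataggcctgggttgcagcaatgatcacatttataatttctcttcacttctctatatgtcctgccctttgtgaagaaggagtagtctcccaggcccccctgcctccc
Slc1a3, chr15:8710808-8711057, - strand: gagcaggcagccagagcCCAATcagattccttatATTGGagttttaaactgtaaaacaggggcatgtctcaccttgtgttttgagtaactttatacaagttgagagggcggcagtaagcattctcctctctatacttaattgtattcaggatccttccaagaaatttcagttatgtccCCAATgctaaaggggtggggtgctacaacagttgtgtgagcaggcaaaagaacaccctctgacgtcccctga
Kcnj10, chr1:172340960-172341209, + strand: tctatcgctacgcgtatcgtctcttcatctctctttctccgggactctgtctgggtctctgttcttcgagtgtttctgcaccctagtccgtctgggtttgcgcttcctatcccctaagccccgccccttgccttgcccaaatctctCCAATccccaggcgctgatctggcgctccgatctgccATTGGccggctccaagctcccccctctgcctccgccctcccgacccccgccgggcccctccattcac
CCAAT occurred 2 times in the Glul window, 3 times in Slc1a3, 2 times in Kcnj10 and 0 times in Rlbp1, and at least once in 33.8% of the 32851 windows of the table. TGGGAA, the core letters of the Notch-dependent factor RBPJ, was searched on both strands and was in 0 of the 7 member windows and 21.6% of all windows. ACAATG, a core bound by SOX proteins, was in 1 Apoe window and 10.7% of all. A window without the letters says nothing about binding elsewhere.

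Glutamate uptake and conversion depend on Slc1a3, the glial glutamate transporter GLAST, and Glul, glutamine synthetase. Slc1a3 stood at 0.09, −0.07, −0.22 and −0.26 on the 4 hFc arrays and at −1.21, −1.38, −1.22 and −0.40 on the Dll4-Fc arrays. It stood at 0.72, 0.84, 0.63, 0.69 and 0.60 after VEGF-A and at −0.06, −0.01 and −0.13 after VEGF Trap. Every VEGF-A array was above, and every Dll4-Fc array below, all hFc and VEGF Trap arrays. Slc1a3 rose 1.75-fold after VEGF-A (adjusted p = 0.00296) and fell 1.92-fold after Dll4-Fc (log2 −0.94, standard error 0.16, adjusted p = 0.00260). The group order was VEGF-A, then VEGF Trap and hFc, which did not differ beyond their spread, then Dll4-Fc.

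The Slc1a3 probe used is the brightest of 5 on chromosome 15, and in the files its coordinates run opposite to those of the other 4. It is named through a transcript cluster, and its strand relative to the gene was not settled here. The second brightest, designed to the RefSeq transcript, gave 0.80 (adjusted p = 0.00266) for VEGF-A and −0.82 (adjusted p = 0.00663) for Dll4-Fc. The first 30 of their 60 bases are shown because the Slc1a3 result rests on this pair.
A_66_P104552: tctcttgacaaatcattcaaaagtctcatc
A_51_P268697: gtttacccggtgtgatattttttatactaa
The next probe in brightness passed in the same directions (0.74 and −0.94), and the dimmest 2 probes passed in neither comparison. With all 5 averaged, the Dll4-Fc difference was −0.68 and did not pass (adjusted p = 0.0671).

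Glul stood at 0.29, 0.50, 0.47 and 0.58 on the hFc arrays and at −0.90, −0.95, −1.27 and 0.24 on the Dll4-Fc arrays. It stood at −1.25, −1.26, −0.53, −1.06 and −1.24 after VEGF-A and at 0.75, 0.84 and 0.27 after VEGF Trap. Dll4-Fc 4 lay just under the lowest hFc array, and Dll4-Fc 1 and 2 were among the VEGF-A values, with Dll4-Fc 3 at −1.27 just under the lowest of them. Glul fell 2.88-fold after VEGF-A (adjusted p = 0.000802), and its other 2 probes, at −1.46 and −1.21, also passed. It fell 2.27-fold after Dll4-Fc (log2 −1.18, standard error 0.26, adjusted p = 0.0173), while the other probes gave −0.89 and −1.05 and did not pass (adjusted p = 0.178 and 0.0908). The Dll4-Fc call was lost without hFc 4 (−1.14), Dll4-Fc 1 (−1.12), Dll4-Fc 2 (−1.10) or Dll4-Fc 3 (−1.0), and with the outlier rows left out (−0.89, adjusted p = 0.175). In order, neither VEGF Trap and hFc nor Dll4-Fc and VEGF-A (0.35, interval −0.19 to 0.89) differed past the threshold. Slc1a3 and Glul, which act in the same uptake route, thus moved in opposite directions after VEGF-A and in the same direction after Dll4-Fc.

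Potassium, water and acid handling were read through Kcnj10, the inward rectifier channel Kir4.1, Aqp4, the water channel of glial endfeet, and Car2, a cytosolic carbonic anhydrase. Kcnj10 stood at 0.44 on hFc 3 and at −1.26, −1.45, −1.29 and −0.63 on the Dll4-Fc arrays. It stood at 0.14, 0.18, 0.61, 0.21 and 0.12 after VEGF-A and at 0.17, 0.53 and 0.23 after VEGF Trap. The Dll4-Fc arrays were below all others, and VEGF-A and VEGF Trap arrays overlapped. Kcnj10 fell 3.04-fold after Dll4-Fc (log2 −1.60, standard error 0.28, adjusted p = 0.00510), taking the lone hFc array to vary as the rest do. With the marked hFc spots kept, its hFc values were −0.01, −0.19, 0.44 and −0.06, and the difference was −1.20 (adjusted p = 0.00065). Against VEGF-A and VEGF Trap, which do not involve hFc, Kcnj10 was lower after Dll4-Fc by −1.41 (standard error 0.17) and −1.47 (0.19).

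Aqp4 stood at 0.59, 0.41, 0.63 and 0.49 on the hFc arrays and at −0.53, −0.35, −0.57 and 0.37 on the Dll4-Fc arrays. It stood at −1.44, −1.35, −0.65, −1.31 and −1.53 after VEGF-A and at 0.66, 1.22 and −0.01 after VEGF Trap. All VEGF-A arrays were below all others, and VEGF Trap held the widest range. Aqp4 fell 3.45-fold after VEGF-A (log2 −1.79, adjusted p = 0.000141), the largest fall among the members in that comparison. The other probes gave −1.73, with hFc 4 as the only hFc array measured, and −1.68 (adjusted p = 7.70e-07). After Dll4-Fc the brightest probe did not pass, but the dimmest of the 3, which had the smallest spread, gave −0.84 (standard error 0.15, adjusted p = 0.00296). The mean of the 3 probes also passed (−0.84, adjusted p = 0.0195). Aqp4 was higher after Dll4-Fc than after VEGF-A by 0.99 (0.25, adjusted p = 0.0142), but did not pass when VEGF-A was read from slide 4 alone (0.90, adjusted p = 0.0878).

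Car2 stood at 0.00, 0.24, 0.06 and 0.04 on the hFc arrays and at −0.60, −0.83, −0.68 and −0.33 on the Dll4-Fc arrays. It stood at 0.18, 0.19, 0.13, 0.21 and 0.41 after VEGF-A and at −0.02, −0.29 and −0.30 after VEGF Trap. All Dll4-Fc arrays were below all others, and all VEGF Trap arrays were below all hFc arrays. Car2 fell 1.62-fold after Dll4-Fc (log2 −0.69, standard error 0.11, adjusted p = 0.00102), and gave 0.14 after VEGF-A and −0.29 after VEGF Trap, neither past the threshold. VEGF-A and VEGF Trap differed from each other by 0.43 (0.11, adjusted p = 0.0173), a call lost without VEGF Trap 2 or VEGF Trap 3 (0.38 each). In order, hFc lay between VEGF-A and VEGF Trap and differed past the threshold from neither.

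Rlbp1 encodes CRALBP, the retinoid carrier that Müller glia use in supplying cones. It stood at 0.11, 0.20, 0.17 and 0.10 on the hFc arrays and at −1.03, −1.20, −1.14 and −0.48 on the Dll4-Fc arrays. It stood at 0.28, 0.30, 0.27, 0.12 and 0.21 after VEGF-A and at 0.43, 0.28 and 0.13 after VEGF Trap. The 12 arrays outside Dll4-Fc lay within 0.10 to 0.43, and all 4 Dll4-Fc arrays were below them. Rlbp1 fell 2.16-fold after Dll4-Fc (log2 −1.11, standard error 0.13, adjusted p = 6.43e-05), the smallest adjusted p among the members there, and its other probe gave −0.92 (adjusted p = 0.0132). Its difference was 0.09 after VEGF-A (interval −0.17 to 0.35) and 0.13 after VEGF Trap (−0.16 to 0.43). The order VEGF Trap, VEGF-A, hFc held no step beyond the spread until Dll4-Fc.

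Dkk3, a secreted protein of the Dickkopf family, stood at −0.62, −0.27, −0.27 and −0.29 on the hFc arrays and at −1.15, −1.21, −1.41 and −0.90 on the Dll4-Fc arrays. It stood at −0.47, −0.27, −0.10, −0.51 and −0.45 after VEGF-A and at −0.08, −0.12 and −0.30 after VEGF Trap. As for Rlbp1, only the Dll4-Fc arrays were apart. Dkk3 fell 1.74-fold after Dll4-Fc (log2 −0.80, standard error 0.12, adjusted p = 0.000904), and its other probe gave −0.84 (adjusted p = 0.00036). Both Dkk3 probes lie in the rows of the hFc outliers, and against VEGF-A and VEGF Trap the brightest gave −0.81 and −1.0, both past the threshold. The VEGF-A difference was 0.00 (interval −0.25 to 0.25).

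Apoe, the lipid carrier that Müller glia secrete, stood at −0.39, −0.20, −0.31 and −0.23 on the hFc arrays and at −0.74, −1.04, −0.86 and −0.80 on the Dll4-Fc arrays. It stood at −0.63, −0.71, −0.46, −0.99 and −0.95 after VEGF-A and at −0.34, 0.03 and −0.48 after VEGF Trap. Arrays of both Dll4-Fc and VEGF-A were below all hFc arrays and overlapped each other. Apoe fell 1.49-fold after Dll4-Fc (log2 −0.58, adjusted p = 0.0169) and 1.38-fold after VEGF-A (adjusted p = 0.0268), and the 2 groups did not differ past the threshold (−0.11, interval −0.38 to 0.15). Both calls were near the threshold. That for Dll4-Fc was lost without hFc 2 (−0.55) or Dll4-Fc 2 (−0.52), and that for VEGF-A without hFc 2 (−0.44), hFc 3 (−0.47), hFc 4 (−0.45), VEGF-A 4 (−0.40) or VEGF-A 5 (−0.41). Both were also lost with normexp background correction and loess (−0.44 and −0.32). That for VEGF-A was lost with hFc 1 and hFc 2 averaged (−0.47, adjusted p = 0.0545) and when VEGF-A was read from slide 3 alone (−0.39) or slide 4 alone (−0.52). The only Apoe probe lies in the rows of the hFc outliers, so neither call could be read with those rows left out.

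Crym, the thyroid hormone binding protein µ-crystallin, differed past the threshold between every pair of the 4 groups. It stood at −0.12, −0.17, −0.10 and −0.35 on the hFc arrays and at −0.66, −0.95, −0.62 and −0.32 on the Dll4-Fc arrays. It stood at 0.79, 0.76, 0.69, 0.97 and 0.82 after VEGF-A and at −1.20, −1.14 and −1.11 after VEGF Trap. VEGF-A arrays were above and VEGF Trap arrays below all others, while Dll4-Fc 4 fell among the hFc arrays. Crym rose 1.99-fold after VEGF-A (log2 0.99, adjusted p = 1.08e-05) and fell 1.96-fold after VEGF Trap. VEGF-A and VEGF Trap differed by 1.96 (standard error 0.12, adjusted p = 1.05e-08), and by 1.94 with slide as a term on the 8 arrays of their shared slides. The fall after Dll4-Fc (−0.45, standard error 0.11, adjusted p = 0.0317) was lost without hFc 1 (−0.43), hFc 2 (−0.45), hFc 3 (−0.43), Dll4-Fc 1 (−0.45), Dll4-Fc 2 (−0.35) or Dll4-Fc 3 (−0.46). It was also lost with hFc 1 and hFc 2 averaged (−0.44, adjusted p = 0.0832) and in the Cy3 channel alone (−0.35, adjusted p = 0.184).

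Sox9, a transcription factor of retinal progenitors and Müller glia, stood at 0.05, −0.17, −0.05 and −0.32 on the hFc arrays and at −0.36, −0.16, −0.40 and −0.42 on the Dll4-Fc arrays. It stood at 0.26, 0.36, 0.38, 0.16 and −0.31 after VEGF-A and at 0.40, 0.19 and 0.51 after VEGF Trap. The VEGF Trap arrays were above the hFc arrays, and VEGF-A 5 was near the lowest hFc array. Sox9 passed in no comparison with hFc, at −0.21, 0.29 and 0.49 for Dll4-Fc, VEGF-A and VEGF Trap, but without VEGF-A 5 the VEGF-A difference was 0.41 (adjusted p = 0.0195), and from slide 3 alone 0.43 (adjusted p = 0.0431). The other 2 Sox9 probes gave −0.17 and −0.35 for Dll4-Fc, 0.19 and −0.04 for VEGF-A and 0.00 and −0.14 for VEGF Trap, none past the threshold. Dll4-Fc was lower than VEGF Trap on the brightest probe (−0.70, standard error 0.15, adjusted p = 0.00737) but not on the others (−0.17 and −0.22) or on the mean of the 3 (−0.36, adjusted p = 0.0663). The first 30 of the 60 bases of each probe are shown, the brightest first, because they disagree on this difference.
A_52_P577484: ttccaggagagagactttaagactttgtct
A_52_P214630: ataaaaccttaaagcgttcttataatatgg
A_51_P451606: actctgggcaagctctggaggctgctgaac

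**Figure D3:**
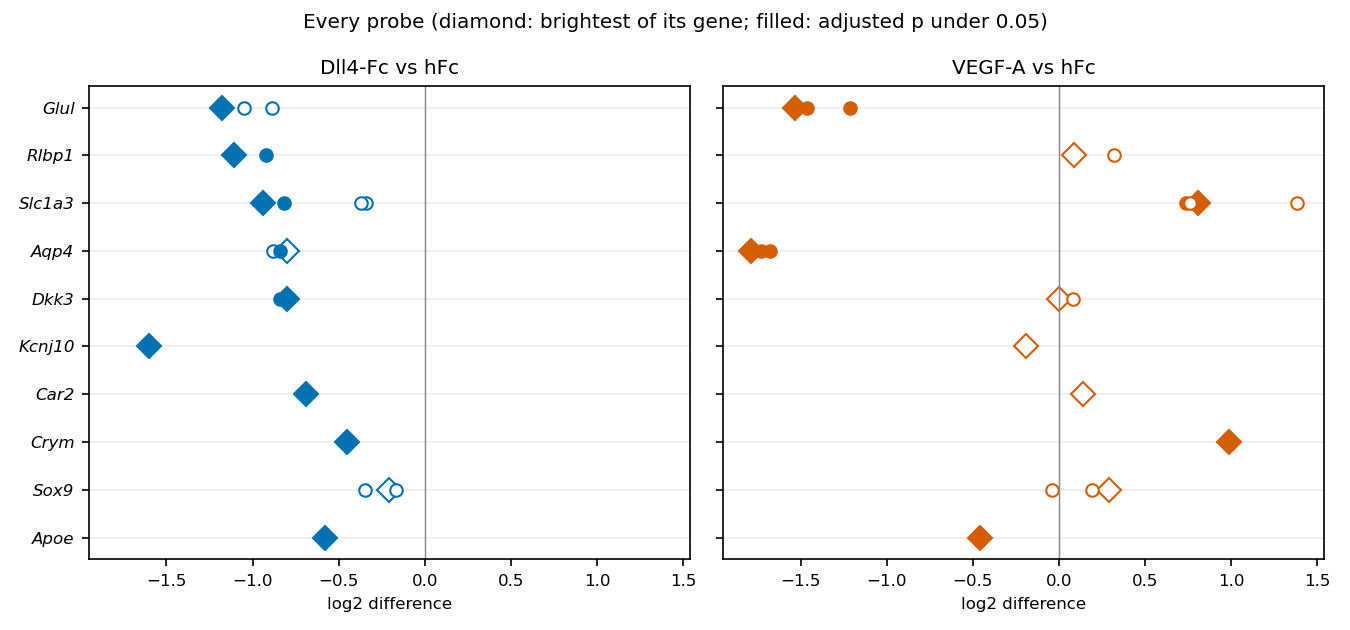
Log2 difference from hFc of all 22 probes on the horizontal axis, by gene, for Dll4-Fc and VEGF-A; diamonds are the brightest probe of a gene and filled symbols passed an adjusted p of 0.05. For Dll4-Fc, 13 probes passed, all lower; for VEGF-A, 4 passed higher (Slc1a3 and Crym) and 7 lower (Glul, Aqp4 and Apoe). Of all probes tested 4.02% passed for Dll4-Fc and 8.99% for VEGF-A.

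Dll4-Fc vs VEGF-A compared the 2 treatments directly, at unequal doses and on separate slides, and asked where their levels differed. Of the 10 genes 7 were lower after Dll4-Fc (Rlbp1, Slc1a3, Dkk3, Kcnj10, Car2, Crym and Sox9) and 1, Aqp4, was higher. Glul (0.35) and Apoe (−0.11) did not pass. Of all 23307 genes 6.69% were lower, 6.07% higher and 12.8% either, and arrays did not overlap for 7 members and 14.4% of all genes. The largest member difference was in Slc1a3 (−1.75, standard error 0.16, adjusted p = 1.18e-06), followed by Crym (−1.45, 0.11). The Sox9 call (−0.50) was lost without Dll4-Fc 1 (−0.49), Dll4-Fc 3 (−0.48), Dll4-Fc 4 (−0.48) or VEGF-A 2 (−0.46), and with VEGF-A from slide 4 alone (−0.41). It rests on the brightest Sox9 probe, and the others gave −0.36 and −0.31 and did not pass.

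Dll4-Fc vs VEGF Trap gave 8 lower members and 1 higher, Crym (0.51, standard error 0.12, adjusted p = 0.0132), against 4.87% and 7.64% of all genes and 12.5% in either direction. Arrays did not overlap for 9 members and 25.2% of all genes. Rlbp1 (−1.24), Kcnj10 (−1.47), Dkk3 (−1.0) and Glul (−1.34) had the largest differences. The brightest Aqp4 probe lay at the threshold (−0.89, adjusted p = 0.0508), and 11 of 21 settings kept it uncalled. Both other Aqp4 probes passed (−1.01, adjusted p = 0.0143, and −0.92, adjusted p = 0.00184), as did the probe mean (−0.94, adjusted p = 0.00865). The brightest probe passed without Dll4-Fc 4 (−1.11) or VEGF Trap 3 (−1.21), with normexp and loess (−0.85), in the series matrix (−0.89), with the filter on all 16 arrays (−0.89), with the outlier rows left out (−0.89) and with slide as a random block (−0.90). Calls were lost for Car2 (−0.41) without Dll4-Fc 1 (−0.41), Dll4-Fc 2 (−0.33), Dll4-Fc 3 (−0.39), VEGF Trap 1 (−0.32) or VEGF Trap 3 (−0.46), for Crym without VEGF Trap 1 (0.49) and for Apoe (−0.60) without VEGF Trap 2 (−0.45). In the Cy3 channel alone Car2 (−0.44) and Crym (0.39) did not pass. With the VEGF Trap array of slide 4 alone, only Rlbp1, Dkk3 and Kcnj10 passed.

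VEGF-A vs VEGF Trap set the growth factor against its decoy on shared slides. Slc1a3 (0.76), Car2 (0.43) and Crym (1.96) were higher after VEGF-A, and Glul (−1.69), Aqp4 (−1.88) and Apoe (−0.48) lower, which is 6 of 10 members. Of all genes 10.1% were higher, 7.93% lower and 18% either, and arrays did not overlap for 5 members and 25.2% of all genes. With slide as a term in the 8 arrays, 5 of these passed: Crym 1.94, Aqp4 −1.83, Glul −1.69, Slc1a3 0.80 and Car2 0.43, while Apoe gave −0.43 (adjusted p = 0.131). The Apoe call was also lost without VEGF-A 4 (−0.42), VEGF Trap 1 (−0.52) or VEGF Trap 2 (−0.34). In the Cy3 channel alone neither Apoe (−0.32) nor Car2 (0.31) passed. Within slide 3, Slc1a3 gave 0.82 and Car2 0.34, neither past the threshold; within slide 4, where VEGF Trap has 1 array, Crym alone passed, and Glul gave −1.22 and Aqp4 −1.16.

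Other genes of Müller glia were read from lists chosen with earlier results of these data known. Of 14 other Müller glia genes measured, 5 fell after Dll4-Fc and 0 rose (median −0.17). Abca8a, a lipid transporter of the ABC family, fell most (−3.63, standard error 0.15, adjusted p = 6.59e-09), followed by the receptor Gpr37 (−0.96) and the peroxiredoxin Prdx6 (−0.70). Chosen after their values were seen, Mlc1 (−0.81) and Pdpn (−1.03, with 1 hFc array measured) also fell. Vim, the glial intermediate filament, gave −0.03 there. After VEGF-A, 3 rose, Vim (1.89, adjusted p = 1.10e-07), Cd9 (0.81) and Dbi (0.72), and 1 fell. Over 21 settings for Dll4-Fc, 4 to 6 genes of the list fell and 0 rose.

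Factors of glial fate gave 4 falls and 0 rises of 13 after Dll4-Fc (median −0.31). These were Lhx2 (−1.04, adjusted p = 1.05e-05), a factor needed for Müller glia, and the Notch targets Hes5 (−1.31, adjusted p = 1.87e-05), Hey2 (−0.98) and, named after its value was seen, Hes1 (−0.72). Sox2 (−0.40), Sox8 (−0.31) and Rax (−0.26) did not pass. After VEGF-A only Lhx2 passed (−0.33), and after VEGF Trap only Hes5 (−0.59).

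Partners of the members moved less. Of 11 potassium, water and glutamate partners, 1 fell after Dll4-Fc, Glud1, glutamate dehydrogenase (−0.30), and 1 after VEGF-A, the membrane carbonic anhydrase Car14 (−0.78). The glutamine transporter Slc38a3 rose after VEGF Trap (0.44). Of the 7 genes of the dystrophin complex, which anchors Aqp4 and Kcnj10 at endfeet, 0 passed an adjusted p of 0.05 against hFc in limma for Dll4-Fc, VEGF-A or VEGF Trap, with medians of −0.19, −0.17 and 0.10. At an unadjusted p under 0.05 the counts were 2, 1 and 1. Among 10 lipid partners of Apoe, Apod fell after VEGF-A (−2.22) and rose after Dll4-Fc (0.91), and Pltp, a phospholipid transfer protein, fell after VEGF-A (−1.15, with 2 hFc arrays measured). After VEGF Trap, Apod fell (−1.28).

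Markers of other cells and of glial activation were read beside the members. Of 11 microglia and macrophage genes measured, 11 rose after Dll4-Fc (median 0.77), among them Aif1 (1.5), C1qa (0.82) and Ptprc (1.93). Their mean ran from −0.46 to −0.23 in the hFc group and from 0.43 to 0.77 in the Dll4-Fc group, and all 12 listed markers were above background. Its part in the falls of the Müller glia genes was not tested. Rod and cone genes, the bulk of the retina, had a mean of −0.40 to −0.29 after Dll4-Fc and −0.45 to −0.17 after hFc, with 0 of 9 called in limma and 1 of 9 at an unadjusted p under 0.05 (median −0.07). Genes of reactive gliosis rose in 9 of 12 after VEGF-A (median 1.68), led by Nes (2.38), Edn2 (4.45) and Gfap (2.36), and in 5 of 12 after Dll4-Fc, among them Gfap (1.13), Lcn2 (2.3) and Serpina3n (1.71). Vim and Gfap stand in this list and also among the other Müller glia and the astrocyte genes. Of 7 astrocyte genes, Gfap and Aldh1l1 (0.51) rose after VEGF-A, and after Dll4-Fc Gfap rose and Nr2e1 fell (−0.73). Of 6 endothelial genes, 5 rose and 1 fell after VEGF-A, the last being the tight junction gene Cldn5 (−0.34), named after its value was seen. After VEGF Trap 6 fell, and 2 to 6 did over 21 settings, the fewest with its slide 4 array alone. Of 5 oligodendrocyte genes 1 rose after Dll4-Fc, the transcription factor Olig2 (2.15, standard error 0.24, adjusted p = 5.16e-05). With the outlier rows left out, 0 of the 4 oligodendrocyte genes still measured passed in limma. The list's mean ran from −0.23 to −0.02 in the hFc group and from 0.16 to 0.36 in the Dll4-Fc group. The median difference of the 5 genes was only 0.05, so this shift in the mean follows Olig2 and not the list as a whole. The part of these genes in the member values was not tested.

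**Figure D4:**
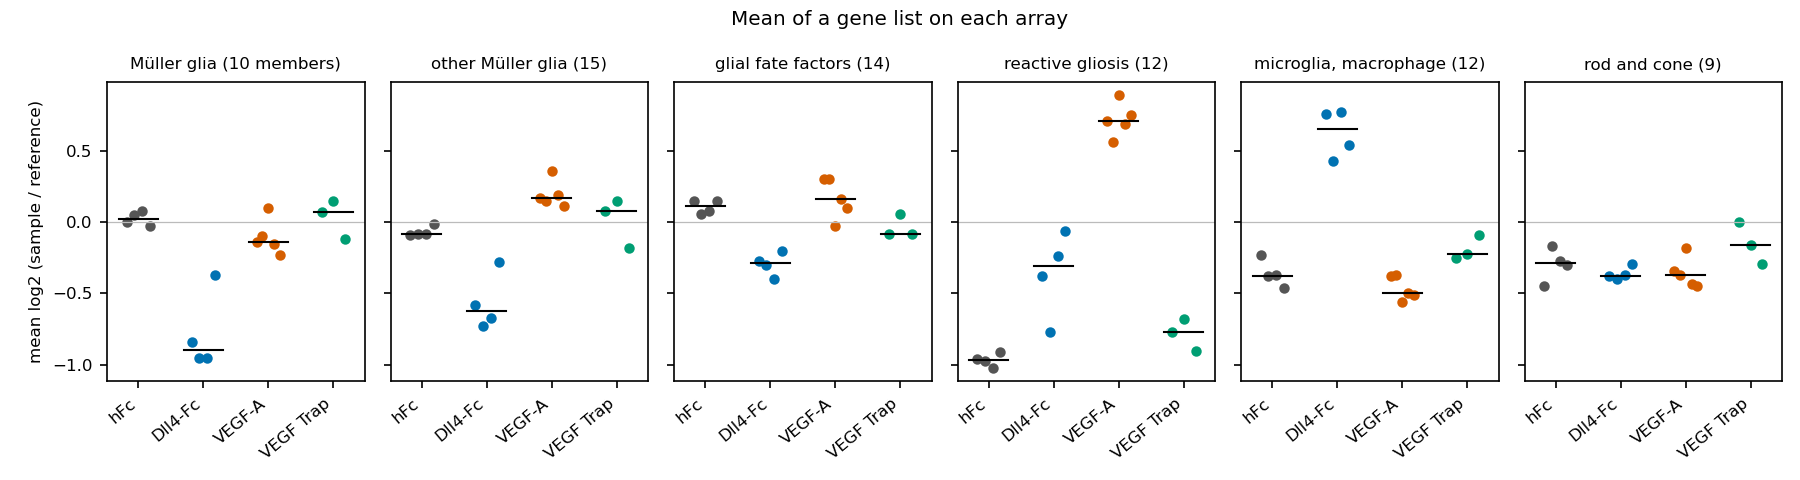
Mean log2 of sample over reference pool of 6 gene lists on the vertical axis, 1 point per array in 4 groups, lines at group medians. The mean of the members ran from −0.03 to 0.08 in the hFc group and from −0.95 to −0.37 in the Dll4-Fc group. It covers 9 genes on hFc 1, 2 and 4, where Kcnj10 was left out, and 10 on the other arrays. Rod and cone means of hFc and Dll4-Fc arrays overlapped, the reactive gliosis mean was highest after VEGF-A and the microglia mean after Dll4-Fc.

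For each member measured on all 16 arrays, the gene most alike was taken as that with the highest Pearson r over those arrays among 15459 genes; the arrays fall in 4 groups, so r mostly reads the group pattern. Glul and Aqp4 shared Cyp4f14 (r = 0.958 and 0.945), a cytochrome P450 with means of 0.57 after hFc, −0.57 after Dll4-Fc, −1.0 after VEGF-A and 0.91 after VEGF Trap. Slc1a3 was most like S1pr1 (0.969), a sphingosine phosphate receptor, with means of −0.16, −1.17, 0.85 and −0.14 in the same order. Rlbp1 was most like the caveolin Cav1 (0.971), which had 0.22, −2.11, 0.49 and 0.31. Crym was most like Cyp2j6 (0.973), Dkk3 like Abca6 (0.958), Car2 like Pon2 (0.930), Apoe like Mr1 (0.932) and Sox9 like Prpf4 (0.902). Cyp2j6 spanned only −0.18 to 0.38 in group means, against −1.15 to 0.81 for Crym. Kcnj10 was measured on 13 arrays and was not compared.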

How the data were processed

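Cyanine-labelled retinal RNA was hybridised to 16 2-colour arrays, a sample in Cy3 and a common pool in Cy5, per the labels' protocols. The deposited scanner files hold intensity values and a log10 ratio from Agilent Feature Extraction 9.5.1.1, per the submitters' processing notes. Log2 of sample over pool was taken as minus that deposited ratio over log10 of 2. The authors' deposited value table, which tracked these ratios on a natural log scale (r = 0.999 to 0.9999), and the deposited intensity columns served as alternatives. Outlier spots were left out, spots of a probe averaged, and a probe kept if 3 or more arrays had it well above background in Cy3. All 16 arrays entered 1 fit of 4 groups in limma 3.58.1 (R 4.3.3), with lmFit and eBayes, 12 residual degrees of freedom, 6 comparisons, and Benjamini-Hochberg adjustment over all probes at 0.05. The method was tested on simulated data with normal noise and changes set in probes measured on every array. Against hFc it recovered 28 to 38% of changes of 0.5 on the log2 scale and 64 to 76% of changes of 1. A difference that did not pass can therefore still be real. The precision is set by the number of arrays. A gene was read by its brightest probe. All members are named; from each other list up to 3 called genes of smallest p are named per comparison, and some called genes of these lists are not reported here. Members and lists were chosen with earlier results of these data known. Alternatives covered normalization, channel, filters, probe choice, slide, hFc 1 and hFc 2 averaged, and each array left out; leaving out the outlier rows, or VEGF-A 3 with Dll4-Fc 4, was added after seeing the data.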

Additional observations from a re-analysis of the deposited data

Results flagged for a closer look

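In 29 groups of 4 or 5 arrays with a value for a member, 5 had an array far from the others. Chance flags about 1 in 20 of independent groups. These groups reuse the same arrays for different genes, so their count cannot be set against that rate. VEGF-A 3 was apart for Glul (−0.53, nearest −1.06), Aqp4 (−0.65, nearest −1.31) and Kcnj10 (0.61, nearest 0.21). VEGF-A 5 was apart for Car2 (0.41, nearest 0.21). Array hFc 1 was apart for Dkk3 (−0.62, nearest −0.29).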

How the results depend on the processing

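No called member changed sign under any alternative run. Of the single-gene values under the alternatives, 1175 kept their direction and side of the threshold, 66 lost the threshold, 15 gained it and 23 reversed, all of the last with no call on either side. Leaving out each array in turn gave 4 to 5 called members for VEGF-A vs hFc, 5 to 9 for Dll4-Fc vs hFc, 1 to 1 for VEGF Trap vs hFc, 7 to 8 for Dll4-Fc vs VEGF-A, 7 to 10 for Dll4-Fc vs VEGF Trap and 4 to 6 for VEGF-A vs VEGF Trap. With the VEGF Trap arrays of slide 4 only, 0 members were called against hFc and 3 against Dll4-Fc, and within slide 4 VEGF-A vs VEGF Trap called 1. With the band of rows left out (chosen after seeing the data), Dll4-Fc vs hFc called 4 of 7. The reversed values were, for VEGF Trap vs hFc, Slc1a3 −0.02 and Aqp4 −0.01 with normexp and loess, Apoe −0.07 in Cy3 alone, Kcnj10 0.26 both in the series matrix and with outliers kept, and with slide 4 only Glul −0.19, Rlbp1 −0.02, Slc1a3 −0.01, Aqp4 −0.54 and Apoe −0.20. With single arrays left out, Aqp4 ran there from −0.21 (without VEGF Trap 2) to 0.41 and Apoe from −0.13 (without VEGF Trap 2) to 0.13, with −0.02 without hFc 1. For VEGF-A vs hFc, Kcnj10 was 0.20 in the series matrix and with outliers kept. For VEGF-A vs VEGF Trap, Kcnj10 was 0.03 in Cy3 alone, 0.09 within slide 4 and −0.15 to 0.05 with single arrays left out (0.05 without VEGF Trap 2), Rlbp1 0.02 with probes averaged, 0.07 within slide 4 and −0.12 to 0.03 with single arrays left out (0.03 without VEGF Trap 1), and Sox9 0.03 with probes averaged and 0.01 within slide 3. The cause of the reversals was not tested. With slide as a random block the consensus correlation was −0.022. No paired analysis was possible because replicate numbers follow only the order of deposit, and the unexplained title codes link just 1 sample of a group with 1 of another (VEGF-A 4 and VEGF Trap 3). Precision is limited by 3 to 5 arrays per group.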
